A study of Mus musculus with 8 samples.

Results

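Keratins are the intermediate filament proteins of epithelial cells, and the family was followed here through all 4 groups of thymic epithelial cells (TECs) that were profiled by bulk RNA sequencing. Members were all rows of the count files whose Ensembl mouse identifier belongs to a protein-coding gene named *Krt* followed by a number and at most 1 letter. This rule found 54 genes among 56923 rows, 28 of type I and 26 of type II. *Krt74*, annotated as a unitary pseudogene in the mouse, was left out by the rule and had 0 counts. The libraries came from wild-type C57BL/6J embryos at E16.5, with 2 libraries in each group, all labelled as untreated. *In vivo* TECs were EpCAM-positive cells lysed straight after sorting. 2D-cultured TECs were grown on laminin for 3 days in a medium that contained FGF7, and were lysed as a confluent monolayer. D3 and D7 organoids were grown from sorted TECs in Matrigel in the same medium and were lysed after 3 and 7 days, so that D3 organoids and 2D-cultured TECs had the same time in culture. Thiazovivin, a kinase inhibitor, was in the medium that received the sorted cells and was kept in the organoid cultures for the first 2 days. For 2D the methods name only the TEC medium.

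A keratin filament is built from pairs of 1 acidic type I and 1 basic or neutral type II protein, and neither type forms filaments alone. The pair *Krt8* and *Krt18* is typical of simple, single-layered epithelia, whereas *Krt5* and *Krt14* pair in the basal layer of stratified epithelia. In the thymus, antibodies to KRT8 are widely used to outline the cortex and antibodies to KRT5 or KRT14 to outline the medulla.

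The stretch just upstream of the transcription start is shown for 3 keratins that carry main results of the family, since *Krt7*, *Krt14* and *Krt20* were highest in 2D. Each is the 250 bases before the start of the Ensembl canonical transcript in GRCm39, 5′ to 3′ on the strand of the gene. They lie at chr15:101310033-101310282 (*Krt7*, plus strand), chr11:100098491-100098740 (*Krt14*, minus strand) and chr11:99328986-99329235 (*Krt20*, minus strand), and that of *Krt7* falls within the span of a longer transcript of the gene. Capitals mark every match, on either strand, to TGANTCA (the consensus of AP-1 factors), TATAAA (bound by TBP at many starts) and CCGCCC (known as a GC box).
Krt7: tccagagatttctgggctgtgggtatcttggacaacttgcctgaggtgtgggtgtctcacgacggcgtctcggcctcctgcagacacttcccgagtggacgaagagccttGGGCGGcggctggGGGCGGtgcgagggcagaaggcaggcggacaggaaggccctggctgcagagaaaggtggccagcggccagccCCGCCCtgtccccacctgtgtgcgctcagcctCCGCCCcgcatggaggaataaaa
Krt14: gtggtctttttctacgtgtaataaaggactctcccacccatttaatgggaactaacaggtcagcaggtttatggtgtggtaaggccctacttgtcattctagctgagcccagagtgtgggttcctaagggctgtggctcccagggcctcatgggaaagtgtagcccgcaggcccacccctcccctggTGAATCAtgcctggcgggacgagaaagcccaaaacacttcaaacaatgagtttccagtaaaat
Krt20: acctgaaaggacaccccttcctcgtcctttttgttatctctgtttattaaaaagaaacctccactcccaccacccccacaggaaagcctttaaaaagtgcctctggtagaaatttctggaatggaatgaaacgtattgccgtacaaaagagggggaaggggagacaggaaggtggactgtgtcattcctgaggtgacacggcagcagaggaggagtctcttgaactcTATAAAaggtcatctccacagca

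The 3 windows differed in the letters they held. *Krt7* had 4 matches to CCGCCC and none to the other motifs, *Krt14* a single match to TGANTCA, and *Krt20* a single TATAAA 23 bases before the start. Across the family, TGANTCA was found in 6 of 54 windows (11.1%), against 6.18% of the windows of 21757 protein-coding genes. The matches of *Krt4* and *Krt16* read TGAGTCA. Those of *Krt13*, *Krt14*, *Krt15* and *Krt17* read TGAATCA, which the AP-1 consensus does not take in. Both shares given for TGANTCA are thus of the wider pattern, not of the AP-1 consensus. TATAAA was found in 24 of 54 (44.4%, against 11.9% of all windows). CCGCCC was found in 6 of 54 (11.1%, against 36.3% of all windows), those of *Krt7*, *Krt19*, *Krt75*, *Krt80*, *Krt81* and *Krt222*. The windows of *Krt5*, *Krt8* and *Krt18* held none of the 3 words. These are matches of letters only.

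Values are CPM, counts relative to the library size, which was adjusted by edgeR's TMM factors. The QuantSeq 3′ method reads the 3′ end of polyadenylated transcripts, so CPM were not divided by transcript length. Libraries held 5084715 to 7612532 counts on genes. Of these, 16.6% (a D3 organoid library) to 24.3% (a 2D library) fell on 18S ribosomal RNA, which stayed in the library sizes. Fold changes and p-values come from the quasi-likelihood test of edgeR, fitted to the 8 libraries together. The p-values were adjusted by Benjamini-Hochberg over 14504 genes (those with 1 CPM or more in 3 or more libraries), and a gene was called at an adjusted p of at most 0.05. With 2 libraries against 2, an exact two-sided permutation test cannot go below p = 0.333, so no test was made of single values such as ratios and shares. A gene was treated as being at the floor in a group if neither library had more than 3 counts. Folds against a group with 0 counts are lower bounds over 3 counts in each library, and against 1 to 3 counts a ratio is given with its 95% exact binomial interval, which covers counting error only. Values after ± are SDs of 2 libraries. Values after a log2 fold change are approximate standard errors (SE). Each is the absolute log2 fold change divided by the square root of the F statistic of its test.

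Markers of epithelium (*Epcam*, *Cdh1*, *Cldn3*, *Cldn4*) were detected in every library, summing to 642 to 650.3 CPM *in vivo*, 3694 to 3716 in 2D, 1142 to 1184 in D3 and 1040.0 to 1110 in D7 organoids. The 6 genes chosen to mark thymic epithelium (*Foxn1*, *Psmb11*, *Prss16*, *Dll4*, *Ccl25*, *Cd83*) summed to 4596 to 4665 CPM *in vivo*, 28.7 to 36.6 in 2D, 57.2 to 58.2 in D3 and 640.0 to 666 in D7 organoids. *Dll4* and *Cd83* were at 0 in 2D replicate 2. Thymocyte genes (*Ptprc*, *Cd3e*, *Cd3d*, *Lck*, *Rag1*, *Thy1*) summed to 623 and 285 CPM *in vivo* with all 6 detected, and to 3.71 to 13 CPM in the cultures, where *Cd3d* was at 0 in both 2D libraries and all 4 thymocyte genes tested were lower than *in vivo* in each culture. The 7 mesenchymal genes summed to 45.2 to 45.9 CPM *in vivo*, 29.6 to 35.7 in 2D, 17.9 to 21.8 in D3 and 70.4 to 79.3 in D7 organoids. Endothelial genes summed to at most 5.19, erythroid genes to at most 7.72 and myeloid genes to at most 12.5 CPM in a library, and *Cdh5* and *Tie1* had 0 counts in all 8. The part of these cells in the keratin values was not tested.

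Of the 54 keratins, 9 had 0 counts in all 8 libraries, 9 never had more than 3, and 36 had over 3 counts in at least 1 library. Only 18 passed the filter on low counts and were tested, 11 of type I and 7 of type II. Over 3 counts somewhere were seen for 22 of 28 type I and 14 of 26 type II genes. Those with 0 counts were *Krt26*, *Krt27*, *Krt34*, *Krt39* and *Krt40* of type I and *Krt73*, *Krt82*, *Krt83* and *Krt88* of type II, which apart from *Krt88* are keratins of hair and nail or of the inner root sheath of the follicle. A library had between 21 and 32 keratins with any count and between 15 and 24 with over 3 counts. The most were seen in D7 organoid replicate 1, the deepest library.

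**Figure D1:**
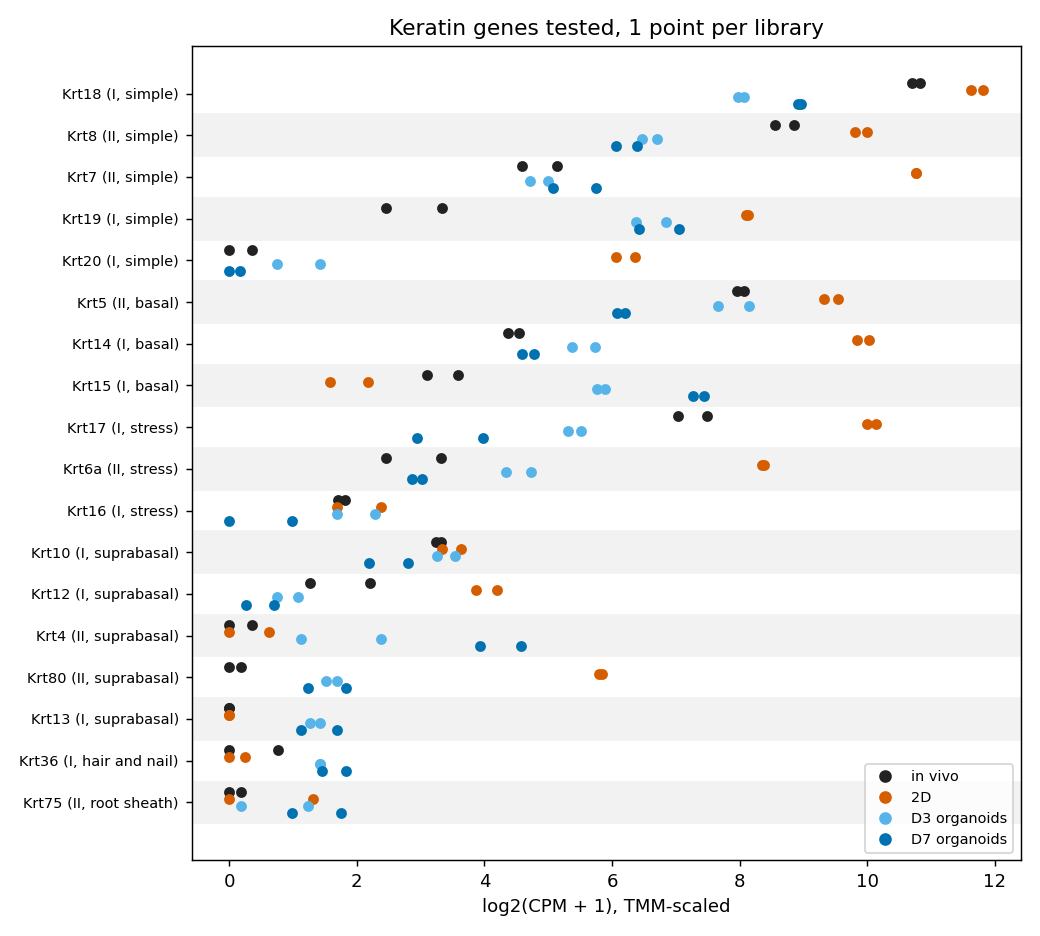
Level of the 18 keratin genes tested in each library, as log2 of CPM plus 1, with the type and the role of each gene on the y axis and 1 point per library coloured by group. *Krt7*, *Krt14*, *Krt20* and *Krt80* stand far to the right in 2D, whereas *Krt15* is lowest in 2D and highest in D7 organoids.

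Summed over the family, keratin transcripts were most abundant in 2D and least abundant in organoids. The sum was 2526 and 2804 CPM *in vivo*, 9807 and 9349 in 2D, 1007 and 826 in D3 organoids, and 983 and 1078 in D7 organoids. The mean in 2D was 3.59 times the *in vivo* mean, and the means in D3 and D7 organoids were 0.344 and 0.387 times it. The ranges of the 2 organoid groups overlapped, and no other pair of groups did. In bulk RNA, fewer keratin-rich cells and less keratin RNA per cell cannot be told apart. Type II genes took 26.8% ± 0.515 of keratin counts *in vivo*, 39.4% ± 0.436 in 2D, 43.1% ± 2.20 in D3 and 21.1% ± 0.954 in D7 organoids. Without *Krt8* and *Krt18*, the share was 58.4% ± 6.26 *in vivo*, 53.6% ± 2.30 in 2D, 53.4% ± 1.41 in D3 and 30.7% ± 1.20 in D7 organoids, so that *in vivo*, 2D and D3 overlapped and D7 organoids stood below them.

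The make-up of the keratin counts changed with culture. *In vivo*, the 2 main simple keratins dominated, with *Krt18* at 65.2% and *Krt8* at 15.6%, followed by *Krt5* at 9.70% and *Krt17* at 5.75% (means of 2 libraries). In 2D, *Krt18* (35.1%), *Krt7* (18.2%), *Krt17* (11.2%), *Krt14* (10.3%) and *Krt8* (9.98%) shared the counts. D3 organoids had *Krt18* (28.4%) and *Krt5* (26.3%) at like shares, with *Krt19* (10.6%) and *Krt8* (10.4%) behind them. In D7 organoids *Krt18* was back at 47.5%, and *Krt15* (15.8%) and *Krt19* (10.4%) came before *Krt8* (7.25%) and *Krt5* (6.78%). Keratins of stress and repair (*Krt6a*, *Krt6b*, *Krt16*, *Krt17*) took 6.09% ± 0.937 *in vivo*, 14.7% ± 1.17 in 2D, 7.33% ± 0.0441 in D3 and 1.72% ± 0.566 in D7 organoids. Those of suprabasal and cornifying layers stayed small but took a larger share in organoids, at 0.557% ± 0.143 *in vivo*, 0.850% ± 0.0504 in 2D, 2.12% ± 0.416 in D3 and 2.78% ± 0.209 in D7 organoids. These are shares of a total that was highest in 2D. In mean CPM, *Krt80* (55.2), *Krt12* (15.5) and *Krt10* (10.3) were highest in 2D, and *Krt4* (18.5) and *Krt13* (1.705) in D7 organoids. Of the stress set, *Krt17* was at 41.6 CPM in D3 organoids against 154 *in vivo*, and *Krt6a* at 22.4 against 6.74.

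**Figure D2:**
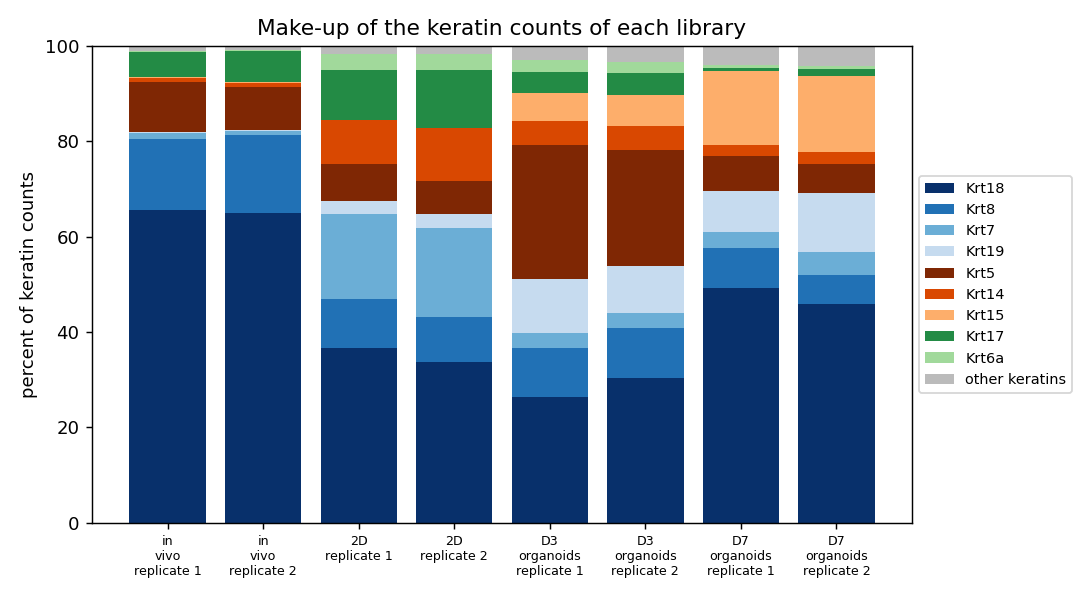
Percent of all keratin counts of each library taken by the 9 most abundant keratins, with all others summed in grey. The dark blue share of *Krt18* is 65.2% *in vivo*, 35.1% in 2D, 28.4% in D3 and 47.5% in D7 organoids (means of 2 libraries), and the pale orange share of *Krt15* is 15.8% in D7 organoids.

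Which keratins were called in each comparison was counted against the share of all genes called. Comparisons that share a group are not independent of each other. In 2D against *in vivo*, 12 of the 18 keratins tested passed the threshold, where 41.6% of all genes did. Of these, 11 were higher (19.9% of all genes were higher) and *Krt15* was lower (21.7% of all genes were lower). Without the filter on low counts, which left 45 keratins to test, 2 were called lower. Of all genes, 6534 of 25395 were then called in either direction. The median log2 fold change was 2.03 for keratins and -0.06 for all genes tested. In D3 organoids against *in vivo*, 11 were called (28.2% of all genes), 8 higher (14.1% of all genes) and 3 lower (14% of all genes), with a median of 1.41 against -0.01. In D7 organoids against *in vivo*, 10 were called (34.8% of all genes), 5 higher (18% of all genes) and 5 lower (16.8% of all genes), with a median of 0.09 against 0.01.

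Against 2D, more keratins were lower than higher in both organoid groups. In D3 organoids against 2D, the pair matched in time, 14 of 18 were called (38.3% of all genes), 11 lower (19.1% of all genes) and 3 higher (19.3% of all genes), with a median log2 fold change of -2.42 for keratins and 0.03 for all genes. In D7 organoids against 2D, 17 were called (45.5% of all genes), 13 lower (21.1% of all genes) and 4 higher (24.4% of all genes), with a median of -3.09 against 0.10. The single keratin not called was *Krt75*. From D3 to D7 organoids, 8 were called (20.8% of all genes), 3 higher (10.9% of all genes) and 5 lower (9.91% of all genes), with a median of -0.24 against 0.06. These counts and medians are over the members that passed the filter, not over the family. *Krt4*, *Krt13* and *Krt36* passed it through organoid libraries alone, and *Krt20*, *Krt75* and *Krt80* through culture libraries alone. A member at 1 CPM or more *in vivo* alone, such as *Krt222*, could not pass it, since it asks for 3 libraries. Without the filter (45 keratins), medians against *in vivo* were 0 in 2D, 0.06 in D3 and -0.02 in D7 organoids. The keratin medians of the other comparisons were then 0. Those of all genes were 0, or 0.0018 in D7 organoids against 2D.

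*Krt18* (chr15:101936615-101940462, plus strand) and *Krt8* (chr15:101905133-101912917, minus strand), the simple pair, rose in 2D and fell in both organoid groups. *Krt18* was at 1654 and 1821 CPM *in vivo*, 3588 and 3149 in 2D, 266 and 250.2 in D3 organoids, and 483 and 495 in D7 organoids. *Krt8* was at 376 and 459.7 CPM *in vivo*, 1020.1 and 894 in 2D, 103 and 87.3 in D3 organoids, and 82.5 and 65.9 in D7 organoids. The groups did not overlap for either gene. In 2D, *Krt18* was 1.93-fold and *Krt8* 2.28-fold higher than *in vivo* (log2 fold changes 0.95, SE 0.137, and 1.19, SE 0.163, with edgeR adjusted p = 2.56e-05 and 1.47e-05). In D3 organoids they were 6.75-fold and 4.41-fold lower than *in vivo* (log2 -2.76, SE 0.146, and -2.14, SE 0.171, with edgeR adjusted p = 3.10e-10 and 4.09e-08).

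With time in organoids the simple pair parted. *Krt18* rose 1.90-fold from D3 to D7 (log2 0.92, SE 0.139, edgeR adjusted p = 0.000236). *Krt8* had a log2 fold change of -0.35 (SE 0.169, edgeR adjusted p = 0.159), which did not pass the test although the groups did not overlap. At D7, *Krt18* remained 3.56-fold and *Krt8* 5.63-fold below *in vivo* (log2 -1.83, SE 0.141, and -2.49, SE 0.174, with edgeR adjusted p = 2.87e-08 and 8.90e-09). The log2 ratio of *Krt18* to *Krt8* counts within a library was 2.06 ± 0.107 *in vivo*, 1.82 ± 0.00185 in 2D, 1.44 ± 0.104 in D3 and 2.73 ± 0.254 in D7 organoids, with no overlap between groups. Against 2D, *Krt18* was 13.1-fold lower in D3 and 6.89-fold lower in D7 organoids, and *Krt8* 10.1-fold and 12.9-fold lower, all 4 past the threshold.

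*Krt5* (chr15:101615505-101621346, minus strand) and *Krt14* (chr11:100093988-100098490, minus strand), the basal pair, did not keep to one ratio. *Krt5* was at 266 and 249 CPM *in vivo*, 745 and 640.2 in 2D, 283 and 202 in D3 organoids, and 72.3 and 66.8 in D7 organoids. *Krt14* was at 19.7 and 22.2 CPM *in vivo*, 917 and 1044 in 2D, 52.0 and 40.5 in D3 organoids, and 23.0 and 26.4 in D7 organoids. In 2D, *Krt5* was 2.68-fold and *Krt14* 46.5-fold higher than *in vivo* (log2 1.42, SE 0.170, and 5.54, SE 0.196, with edgeR adjusted p = 2.94e-06 and 1.76e-12). In D3 organoids *Krt5* overlapped with *in vivo* (log2 -0.09, SE 0.168, edgeR adjusted p = 0.732), whereas *Krt14* was 2.19-fold higher (log2 1.13, SE 0.181, edgeR adjusted p = 0.000128).

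In D7 organoids the basal pair stood closer in level than *in vivo* or in D3 organoids. *Krt5* was 3.71-fold lower than *in vivo* (log2 -1.89, SE 0.176, edgeR adjusted p = 3.10e-07), and *Krt14* had a log2 fold change of 0.22 (SE 0.187, edgeR adjusted p = 0.384). From D3 to D7, *Krt5* fell 3.48-fold (log2 -1.80, SE 0.176, edgeR adjusted p = 3.39e-06) and *Krt14* 1.87-fold (log2 -0.90, SE 0.179, edgeR adjusted p = 0.00186). Against 2D, *Krt14* was 21.3-fold lower in D3 and 39.8-fold lower in D7 organoids, and *Krt5* 2.86-fold and 9.94-fold lower, all past the threshold. The log2 ratio of *Krt5* to *Krt14* counts was 3.62 ± 0.187 *in vivo*, -0.50 ± 0.287 in 2D, 2.38 ± 0.0917 in D3 and 1.49 ± 0.220 in D7 organoids, so that 2D-cultured TECs were the only group with more *Krt14* than *Krt5*. *Krt14* shares 5.51% of the 50-base words in the last 500 bases of its transcripts with *Krt16* and *Krt17*, and reads from those words could have been split between them.

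Set against each other, the simple and the basal pair gave the 4 groups different ratios. The log2 ratio of *Krt8* plus *Krt18* counts to *Krt5* plus *Krt14* counts was 2.83 and 3.07 *in vivo*, 1.47 and 1.26 in 2D, 0.14 and 0.48 in D3 organoids, and 2.57 and 2.59 in D7 organoids. All groups kept apart, with *in vivo* highest, D7 organoids next and D3 organoids lowest. The mean fell by 2.64 from *in vivo* to D3 organoids and stood 2.27 higher at D7 than at D3. At D7 it differed from *in vivo* by -0.37, with *Krt5*, *Krt8* and *Krt18* all lower, but the gap depended on the summary: it was -1.34 when the log2 counts of the same genes were averaged and -1.45 with wider lists. The order of D7 organoids and 2D depended on the members too. In the wider lists, with *Krt7* and *Krt19* added to the simple and *Krt15* to the basal side, the ratio was 2.93 ± 0.154 *in vivo*, 1.92 ± 0.105 in 2D, 0.49 ± 0.145 in D3 and 1.47 ± 0.0164 in D7 organoids, which put 2D above D7.

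**Figure D3:**
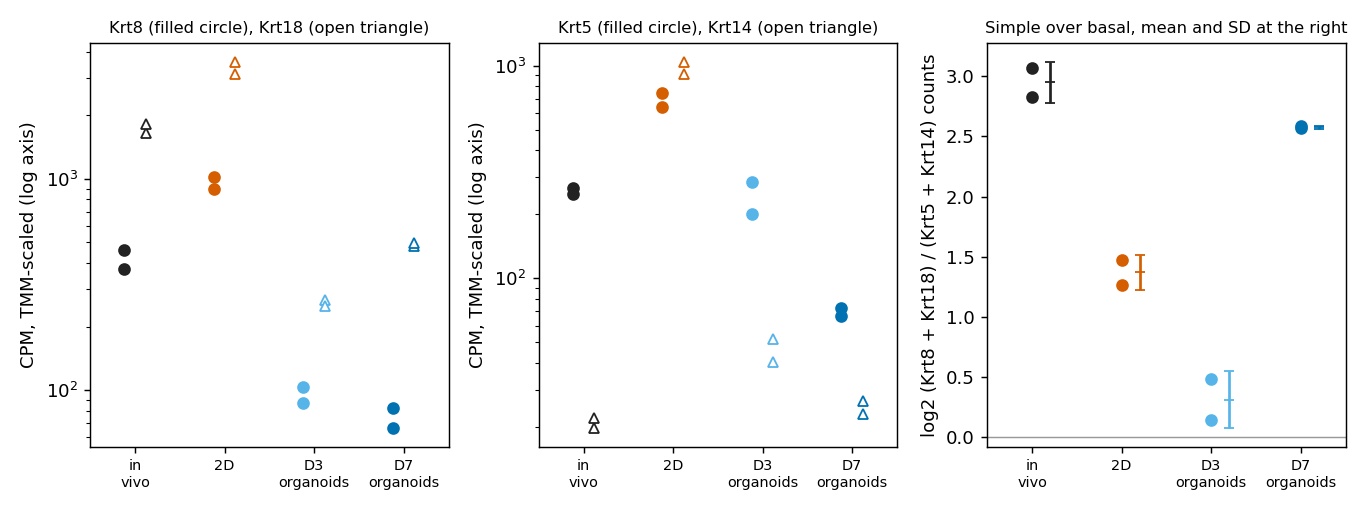
CPM of *Krt8* and *Krt18* (left) and of *Krt5* and *Krt14* (middle) on log axes, and log2 ratio of their summed counts (right), with 1 symbol per library and the mean and SD beside them at the right. D3 organoids are lowest in the ratio, at 0.14 and 0.48, and *Krt14* lies above *Krt5* in 2D only.

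*Krt7*, a type II keratin of ducts and simple glandular epithelia (chr15:101308924-101328194, plus strand), set 2D apart from all other groups. It was at 34.3 and 23.2 CPM *in vivo*, 1741 and 1738 in 2D, 31.0 and 25.1 in D3 organoids, and 32.7 and 52.5 in D7 organoids. In 2D it was 60.7-fold higher than *in vivo* (log2 5.92, SE 0.247, edgeR adjusted p = 8.07e-12), 62.1-fold higher than in D3 organoids (log2 of D3 over 2D -5.96, SE 0.248, edgeR adjusted p = 1.74e-11) and 41.3-fold higher than in D7 organoids. D3 organoids and *in vivo* overlapped (log2 -0.03, SE 0.227, edgeR adjusted p = 0.933). D7 organoids had a log2 fold change of 0.56 over *in vivo* (SE 0.223, edgeR adjusted p = 0.0631) and of 0.59 over D3 organoids (SE 0.223, edgeR adjusted p = 0.0708), both short of the threshold. Without D7 replicate 1, these became 0.87 and 0.91 and passed it (edgeR adjusted p = 0.00937 and 0.013), and without *in vivo* replicate 1 the first was 0.85 (edgeR adjusted p = 0.0258). Both were also called with the replicate number as a block (edgeR adjusted p = 0.044 and 0.0474) and without the filter on low counts (edgeR adjusted p = 0.00459 and 0.0233), the first with DESeq2 (adjusted p = 0.0459), and the second with the filter at a mean of 10 CPM (edgeR adjusted p = 0.0448). The log2 ratio of *Krt7* to *Krt8* counts was -3.88 ± 0.604 *in vivo*, 0.87 ± 0.133 in 2D, -1.76 ± 0.0488 in D3 and -0.83 ± 0.713 in D7 organoids, so that *Krt7* passed *Krt8* in 2D only.

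*Krt19*, a small type I keratin without the usual tail domain that is found in ducts and in progenitor compartments, was higher in every culture than *in vivo*. It was at 4.50 and 9.12 CPM *in vivo*, 274 and 280.5 in 2D, 113 and 82.2 in D3 organoids, and 84.6 and 132 in D7 organoids. The fold over *in vivo* was 39.7 in 2D, 14.0 in D3 and 15.4 in D7 organoids (log2 5.31, 3.80 and 3.95, with edgeR adjusted p = 2.49e-10, 2.22e-08 and 1.65e-08). Without *in vivo* replicate 2, the higher of the pair, the log2 fold changes were 5.94, 4.44 and 4.56. D3 and D7 organoids overlapped (log2 0.14, SE 0.233, edgeR adjusted p = 0.725), and both lay below 2D, at log2 -1.51 and -1.36 (edgeR adjusted p = 6.57e-05 and 0.000146). With *Krt18* lower and *Krt19* higher in organoids, the log2 ratio of *Krt19* to *Krt18* counts was -8.08 ± 0.624 *in vivo*, -3.60 ± 0.157 in 2D, -1.42 ± 0.265 in D3 and -2.21 ± 0.426 in D7 organoids.

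*Krt20*, a type I keratin of intestinal and urothelial surface cells, was near the floor outside 2D. Its counts were 0 and 2 *in vivo*, 448 and 354 in 2D, 4 and 12 in D3 organoids, and 1 and 0 in D7 organoids, or 81.3 and 65.5 CPM in 2D and at most 1.67 elsewhere. The ratio of 2D to *in vivo* was 474 (interval 131 to 3922), and that of 2D to D7 organoids 967 (interval 173 to 38228), both past the threshold (edgeR adjusted p = 7.24e-10 and 7.49e-10). The fitted log2 fold change of 2D over *in vivo* was 7.93 without *in vivo* replicate 1 and 11.82 without *in vivo* replicate 2, and that of D7 organoids over 2D was -11.78 without D7 replicate 1 and -9.0 without D7 replicate 2, all past the threshold. Without either 2D library or D3 replicate 2, *Krt20* did not pass the filter and was not tested. D3 organoids were 59.6-fold below 2D (log2 -5.90, SE 0.401, edgeR adjusted p = 4.34e-09). The low counts in D3 organoids exceeded those *in vivo* (ratio 7.88, interval 1.85 to 70.7, edgeR adjusted p = 0.0241) and those in D7 organoids (ratio 16.1, interval 2.50 to 674, edgeR adjusted p = 0.0149). The first of these calls was lost without *in vivo* replicate 1 (edgeR adjusted p = 0.128) and the second without D7 replicate 2 (edgeR adjusted p = 0.0969). *Krt23*, another type I keratin of simple epithelia, had 26 and 7 counts in D7 organoids and 1 to 4 in each other library, and was not tested.

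*Krt15*, a type I keratin of basal cells that marks stem cell compartments such as the hair follicle bulge (chr11:100022584-100026775, minus strand), was lower in 2D and higher in both organoid groups than *in vivo*, the reverse of the simple pair. It was at 7.61 and 10.9 CPM *in vivo*, 2.00 and 3.52 in 2D, 58.4 and 53.6 in D3 organoids, and 153 and 173 in D7 organoids, with no overlap between groups. Of the 18 keratins tested it was the only one called lower in 2D than *in vivo*, 3.40-fold (log2 -1.76, SE 0.317, edgeR adjusted p = 0.000243). Keratins at 1 CPM or more *in vivo* alone, such as *Krt222*, could not pass the filter and so could not be called. *Krt15* was 5.95-fold higher in D3 and 17.3-fold higher in D7 organoids than *in vivo* (log2 2.57, SE 0.231, and 4.11, SE 0.235, with edgeR adjusted p = 1.73e-07 and 8.20e-10). Against 2D it was 20.2-fold higher in D3 and 58.7-fold higher in D7 organoids (log2 4.34, SE 0.280, and 5.88, SE 0.279, with edgeR adjusted p = 2.40e-09 and 5.02e-11). It rose 2.91-fold from D3 to D7 (log2 1.54, SE 0.200, edgeR adjusted p = 6.49e-05).

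*Krt15* and *Krt14*, both type I and both basal, thus exchanged places between the cultures. The log2 ratio of *Krt15* to *Krt14* counts was -1.20 ± 0.251 *in vivo*, -8.53 ± 0.446 in 2D, 0.29 ± 0.168 in D3 and 2.72 ± 0.0150 in D7 organoids. *Krt14* was the most abundant basal keratin in 2D, *Krt5* *in vivo* and in D3 organoids, and *Krt15* in D7 organoids. The 3′ ends of *Krt15* transcripts shared no 50-base word with another gene.

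**Figure D4:**
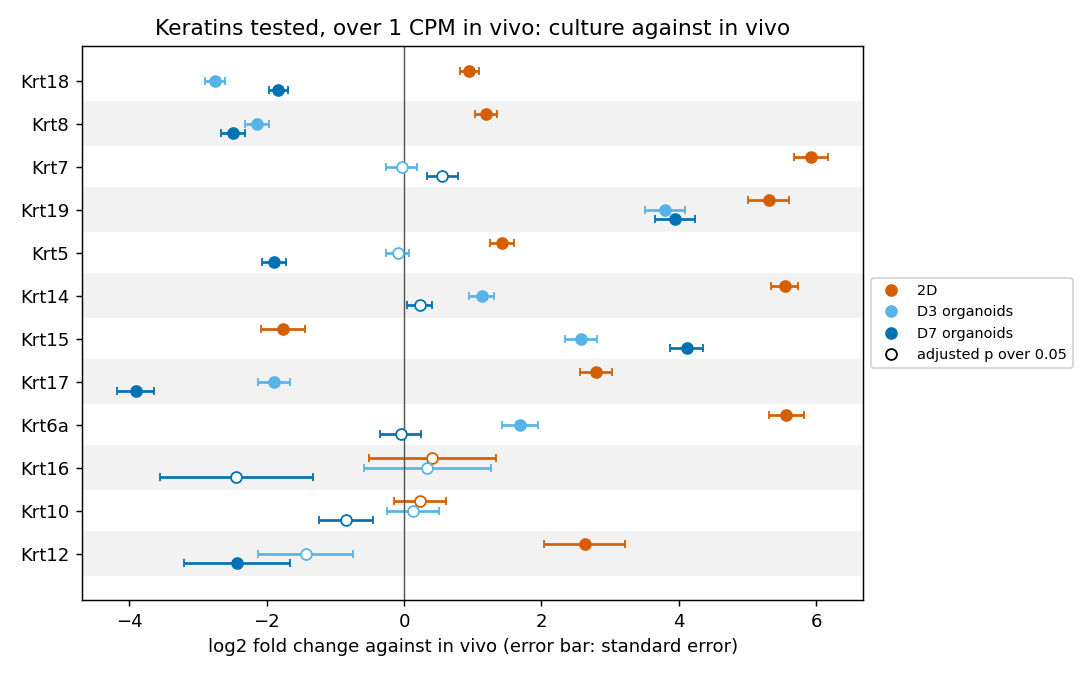
Log2 fold change of each culture against *in vivo* TECs, with the SE as error bar, for the 12 keratins tested that had over 1 CPM *in vivo*, where open symbols have an adjusted p over 0.05. *Krt15* is the only gene plotted that is lower in 2D and higher in both organoid groups, whereas *Krt8*, *Krt17* and *Krt18* are higher in 2D and lower in both. *Krt5* and *Krt12* have the same signs as those 3, but their D3 values did not pass the threshold.

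The keratins of stress and repair, which are switched on in wounded and proliferating epidermis, were led by *Krt17* and *Krt6a*. *Krt17* was at 130.1 and 178 CPM *in vivo*, 1021 and 1121 in 2D, 44.7 and 38.5 in D3 organoids, and 6.68 and 14.8 in D7 organoids, without overlap. It was 6.93-fold higher in 2D than *in vivo* (log2 2.79, SE 0.229, edgeR adjusted p = 2.87e-08), and 3.72-fold lower in D3 and 15.0-fold lower in D7 organoids (log2 -1.90, SE 0.232, and -3.91, SE 0.268, with edgeR adjusted p = 7.17e-06 and 7.32e-09). Against 2D it was 25.8-fold lower in D3 and 104-fold lower in D7 organoids (log2 -4.69, SE 0.253, and -6.70, SE 0.289, with edgeR adjusted p = 2.95e-10 and 1.53e-11). From D3 to D7 it fell 4.04-fold (log2 -2.01, SE 0.269, edgeR adjusted p = 8.45e-05). Without D7 replicate 2, the higher of the pair, the D7 values were -4.52 against *in vivo*, -7.31 against 2D and -2.62 against D3.

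*Krt6a*, the type II partner in that programme, was at 4.50 and 8.98 CPM *in vivo*, 332 and 324 in 2D, 25.5 and 19.3 in D3 organoids, and 6.31 and 7.10 in D7 organoids. It was 47.4-fold higher in 2D and 3.22-fold higher in D3 organoids than *in vivo* (log2 5.57 and 1.69, with edgeR adjusted p = 3.28e-11 and 8.70e-05), and 6.18 and 2.31 on the log2 scale without *in vivo* replicate 2. D7 organoids and *in vivo* overlapped (log2 -0.05, SE 0.295, edgeR adjusted p = 0.917), after a fall of 3.34-fold from D3 to D7 (log2 -1.74, SE 0.262, edgeR adjusted p = 0.000239). *Krt16*, the type I keratin usually found with *Krt6a*, did not share its rise in 2D. It was at 2.25 and 2.53 CPM *in vivo*, 4.17 and 2.22 in 2D, 3.88 and 2.23 in D3 organoids, and 0 and 0.986 in D7 organoids, and in 2D over *in vivo* its log2 fold change was 0.41 (SE 0.924, edgeR adjusted p = 0.754). It was called in D7 organoids against 2D alone (log2 -2.86, SE 1.11, edgeR adjusted p = 0.0444), a call that was lost without either 2D library (edgeR adjusted p = 0.191 without replicate 1 and 0.0512 without replicate 2), without D3 replicate 1 (0.0517) or without D7 replicate 1 (log2 -1.68, adjusted p = 0.297), and the value was -7.37 without D7 replicate 2. Other settings with all libraries kept called *Krt16* elsewhere too. From D3 to D7 these were DESeq2 (adjusted p = 0.0491), limma-voom (adjusted p = 0.0417) and edgeR without the filter (adjusted p = 0.0303). D7 organoids against *in vivo* were called with limma-voom (adjusted p = 0.0418). *Krt16* shares 16.9% and *Krt17* 9.53% of their 3′ words with other genes, *Krt14* among them. *Krt6b* never had over 3 counts.

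Among keratins of suprabasal and cornifying layers, *Krt80*, a type II keratin of many stratified epithelia, and *Krt12*, the type I keratin of corneal epithelium, were highest in 2D. *Krt80* was at 0 and 0.140 CPM *in vivo* (0 and 1 count), 54.2 and 56.1 in 2D, 1.86 and 2.23 in D3 organoids, and 1.36 and 2.56 in D7 organoids. Its ratio to *in vivo* was 712 in 2D (interval 127 to 28160), 26.6 in D3 organoids (interval 4.39 to 1089) and 23.5 in D7 organoids (interval 3.84 to 968), with edgeR adjusted p = 8.05e-10, 0.000631 and 0.000873. The intervals cover counting error only, and the fitted log2 fold changes were 8.42, 3.69 and 3.54 without *in vivo* replicate 1 and 11.41, 6.68 and 6.52 without *in vivo* replicate 2, the library with the 1 count, all still past the threshold. Reads from *Krt80* and its antisense neighbour *Gm35853*, which had at most 24 counts in a library, cannot be told apart if strand was not used in counting. *Krt12* was at 3.63 and 1.40 CPM *in vivo*, 13.6 and 17.4 in 2D, 0.675 and 1.12 in D3 organoids, and 0.619 and 0.197 in D7 organoids. It was 6.20-fold higher in 2D than *in vivo* (log2 2.63, SE 0.590, edgeR adjusted p = 0.00170), and 3.44 on the log2 scale without *in vivo* replicate 1. Its fall in D7 organoids against *in vivo* (log2 -2.43, SE 0.774, edgeR adjusted p = 0.0217) was lost without *in vivo* replicate 1 (log2 -1.62, adjusted p = 0.194) or D7 replicate 2 (log2 -1.97, adjusted p = 0.149), and was -3.52 without D7 replicate 1. Against 2D, *Krt12* was 16.7-fold lower in D3 and 33.4-fold lower in D7 organoids (log2 -4.07 and -5.06, and -6.15 at D7 without D7 replicate 1).

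*Krt4* and *Krt13*, the type II and type I pair of suprabasal cells in internal stratified epithelia such as the oesophagus, were counted in organoids and at the floor elsewhere. *Krt4* had 0 and 2 counts *in vivo* and 3 and 0 in 2D, and was at 1.18 and 4.19 CPM in D3 and 14.2 and 22.7 CPM in D7 organoids. Its ratio of D7 organoids to *in vivo* was 113 (interval 30.9 to 937) and to 2D 63.6 (interval 21.5 to 311), with edgeR adjusted p = 2.84e-05 and 3.70e-05. The fitted log2 fold change over *in vivo* was 5.92 without *in vivo* replicate 1 and 9.81 without *in vivo* replicate 2, and that over 2D was 9.87 without 2D replicate 1 and 5.02 without 2D replicate 2, all past the threshold. In D3 organoids the ratios were 18.2 (interval 4.70 to 156) and 10.3 (interval 3.26 to 52.1), with edgeR adjusted p = 0.00811 and 0.0154. The D3 calls were lost without D3 replicate 2 (adjusted p = 0.126 and 0.216), the first also without *in vivo* replicate 1 (0.0509) and the second without 2D replicate 2 (0.124). From D3 to D7, *Krt4* rose 6.68-fold (log2 2.74, SE 0.644, edgeR adjusted p = 0.00615), which was lost without D3 replicate 1 (log2 2.13, adjusted p = 0.074) or D7 replicate 2 (log2 2.39, adjusted p = 0.155), and was 3.87 without D3 replicate 2.

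*Krt13* had 0 counts in all 4 *in vivo* and 2D libraries, and was at 1.69 and 1.40 CPM in D3 and 2.23 and 1.18 CPM in D7 organoids. Its lower bounds over *in vivo* were at least 3.28-fold higher for D3 and at least 3.63-fold higher for D7 organoids, and over 2D at least 2.80-fold and 3.10-fold higher (edgeR adjusted p = 0.0219, 0.0149, 0.0206 and 0.0144). Each call rested on few counts. Against *in vivo*, the D3 call was lost without D3 replicate 1 (adjusted p = 0.0583) or either *in vivo* library (0.0594 and 0.0651), and the D7 call without D7 replicate 1 (0.0857). Against 2D, both were lost without either 2D library (0.0848 and 0.0813 at D3, 0.0666 and 0.0602 at D7), the D3 call also without D3 replicate 1 (0.0507) and the D7 call without D7 replicate 1 (0.0823). Its level in D3 and D7 organoids overlapped.

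*Krt10*, the type I keratin of epidermal suprabasal cells, was one of the steadier members. It was at 9.0 and 8.42 CPM *in vivo*, 11.4 and 9.07 in 2D, 10.6 and 8.51 in D3 organoids, and 5.94 and 3.55 in D7 organoids. Only D7 organoids against 2D passed the threshold (log2 -1.08, SE 0.396, edgeR adjusted p = 0.0344), and that call was lost without 2D replicate 1 (adjusted p = 0.167), 2D replicate 2 (0.0511) or D7 replicate 2 (log2 -0.78, adjusted p = 0.243). *Krt10* overlaps the antisense gene *Gm11940*, which had at most 35 counts. *Krt1*, its type II partner in the epidermis, had 2 and 1 counts *in vivo*, 0 and 0 in 2D, 1 and 7 in D3 organoids, and 8 and 3 in D7 organoids. *Krt76* was seen in D3 organoids, with 13 and 9 counts, against 3 and 0 *in vivo*, 0 and 0 in 2D and 0 and 2 in D7 organoids. *Krt24* (2 and 12 counts) and *Krt9* (4 and 3 counts) were seen *in vivo* only.

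Keratins of hair and nail took 0.101% ± 0.0509 of keratin counts *in vivo*, 0.000925% ± 0.00131 in 2D, 0.420% ± 0.0453 in D3 and 0.745% ± 0.163 in D7 organoids. These shares did not overlap between groups. They are shares of a keratin total that was lower in organoids (means of 917 CPM in D3 and 1030 in D7) than *in vivo* (2665). The summed CPM of hair and nail keratins was not compared. *Krt36* was the only hair and nail keratin that passed the filter. It was at 0 and 0.702 CPM *in vivo*, 0.181 and 0 in 2D, 1.69 and 1.67 in D3 organoids, and 1.73 and 2.56 in D7 organoids. Its ratio of D7 organoids to 2D was 22.4 (interval 3.69 to 917, edgeR adjusted p = 0.0295), a call lost when any 1 of the 4 libraries compared was left out (adjusted p between 0.0622 and 0.141). The other hair keratins were counted mostly in D7 organoids, with 9 and 10 counts of *Krt32*, 11 and 10 of *Krt33b*, 7 and 9 of *Krt31*, and 4 and 4 of *Krt33a*. D3 organoids had 0 and 0, 4 and 6, 5 and 0, and 3 and 3 counts of these genes, and all 4 were at 0 or 1 count in each *in vivo* library and at 0 in 2D. *Krt31* and *Krt33b* share 2.88% of their 3′ words. *Krt84* had 12 and 0 counts *in vivo*, *Krt85* 4 and 3, and *Krt35* 5 and 0 counts in D3 organoids. *Krt85* shares 53.2% of its 3′ words with *Krt87*, and its few counts could have been split between them.

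Of the keratins of the inner root sheath and companion layer of the hair follicle, *Krt75* was tested and called in no comparison. It was at 0 and 0.140 CPM *in vivo*, 0 and 1.48 in 2D, 1.35 and 0.140 in D3 organoids, and 2.35 and 0.986 in D7 organoids, and its log2 fold change of D7 organoids over *in vivo* was 4.16 (SE 1.74, edgeR adjusted p = 0.0742) against 1 count *in vivo*. *Krt25* had 6 and 0 counts *in vivo*, 3 and 9 in 2D and 0 in each organoid library. *Krt222*, a keratin-like gene of the type I cluster, had 27 and 37 counts *in vivo*, 0 and 0 in 2D, 0 and 1 in D3 organoids, and 5 and 3 in D7 organoids. It was thus at least 8.97-fold higher *in vivo* than in 2D, and its ratio of *in vivo* to D3 organoids was 64.9 (interval 11.2 to 2605), without a test. The remaining keratins with over 3 counts somewhere, *Krt2*, *Krt42*, *Krt72* and *Krt79*, had at most 8.

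Genes whose products hold keratin filaments at desmosomes and hemidesmosomes were looked at beside the family (13 plakins, plakophilins and their partners, all tested). In 2D against *in vivo*, 9 rose and 2 fell, with a median log2 fold change of 1.36 against -0.06 for all genes, of which 19.9% rose and 21.7% fell. The abundant anchors split, since plakoglobin (*Jup*) went from a mean of 63.6 to 151 CPM, the integrin *Itgb4* from 29.6 to 155 and plectin (*Plec*) from 41.6 to 118, while desmoplakin (*Dsp*) fell from 892 to 569.5 and dystonin (*Dst*) from 265 to 149. In D3 organoids 4 were higher (14.1% of all genes) and 4 lower (14%) than *in vivo*, with *Dsp* at 229.8 and *Dst* at 27.9 CPM. In D7 organoids 4 were higher (18% of all genes) and 3 lower (16.8%), with *Dsp* at 291 and *Dst* at 37.1 CPM. Against 2D, 11 were lower (19.1% of all genes) and *Itga6* was higher in D3 organoids, and 9 were lower (21.1% of all genes) and *Itga6* higher in D7 organoids.

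Of 13 other intermediate filament genes, 10 were tested. In 2D against *in vivo*, 3 rose (19.9% of all genes) and 4 fell (21.7%), with a median log2 fold change of -0.25 against -0.06 for all genes. Vimentin (*Vim*) rose from a mean of 85.5 to 176.5 CPM, nestin (*Nes*) from 56.8 to 189 and lamin A/C (*Lmna*) from 4.41 to 134. Those that fell were *Ina*, *Lmnb1*, *Nefm* and synemin (*Synm*). The neurofilament gene *Nefm* went from 172 CPM *in vivo* to 1.01 in 2D, 2.30 in D3 and 15.3 in D7 organoids. In D3 organoids 3 were higher (14.1% of all genes) and 3 lower (14%) than *in vivo*, with *Vim* at 15.4 CPM. In D7 organoids 1 was higher (18% of all genes) and 4 were lower (16.8%), with *Vim* at 7.25 CPM. *Vim*, like *Krt8* and *Krt18*, was thus above *in vivo* in 2D and below it in both organoid groups. The part of thymocytes and other non-epithelial cells in the *Vim* values was not tested.

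Of 19 genes of the stratified epithelium programme, 15 were tested. In 2D against *in vivo*, 8 rose (19.9% of all genes) and 5 fell (21.7%), with a median log2 fold change of 1.74 against -0.06 for all genes. The cornified envelope gene *Sprr1a* went from 3.97 to 218 CPM, stratifin (*Sfn*) from 185 to 909, *Klf4* from 79.0 to 211 and the desmosomal cadherin *Dsg3* from 2.81 to 57.0. *Perp* rose from 189 to 430.5 CPM. *Trp63*, the transcription factor of basal epithelial cells, fell from 125 to 14.2 CPM, and the desmosomal cadherin *Dsc3* from 101 to 32.3. In D3 organoids 5 were higher (14.1% of all genes) and 3 lower (14%) than *in vivo*, with *Sprr1a* at 41.3 and *Trp63* at 74.6 CPM, and in D7 organoids 2 were higher (18% of all genes) and 4 lower (16.8%), with *Sprr1a* at 3.63 and *Trp63* at 71.3 CPM. *Krt14* and *Trp63* were thus at opposite ends in 2D, where *Krt14* was highest and *Trp63* lowest of the 4 groups.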

How the data were processed

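RNA was sequenced as QuantSeq 3′ libraries. Per the paper's methods, the authors aligned reads to GRCm39 with STAR, and the deposited files give the raw count of each Ensembl gene, neither normalized nor filtered. The annotation release, the strand used in counting and the handling of reads with several matches were not given in the sources used here. Groups were taken from the sample labels. No duplicate library was found.

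Symbols, biotypes, positions and sequences were taken from GENCODE annotation of GRCm39, in which 56236 of 56923 rows were matched and 687 were not. Counts were analysed in R 4.3.3 with edgeR 4.0.16 (TMM factors, quasi-likelihood test with 1 mean per group, all 8 libraries), and with limma 3.58.1 and DESeq2 1.42.0 as alternatives. The filter kept genes at 1 CPM or more in 3 or more libraries. The procedure was tested on simulated data. Tables and figures were made in Python 3.11.15 with pandas 2.3.3 and matplotlib 3.10.9. Total counts were 5084715 to 7612532 per library, so 3 counts correspond to 0.371 to 0.592 CPM. The labels call the 2 libraries of a group biological replicates, and the study gives 2 mice per condition.

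All keratins that passed the filter are named with values, and those below it where a library had over 3 counts. Companion genes are examples among the called members of lists, and abundant ones such as *Pkp1* were left out. *Krt23*, *Krt76* and *Krt222* were given in more detail, and the printed upstream windows were chosen, after their values were seen. The members and lists were chosen with earlier results of these data known. Alternatives were other normalizations, tests and filters, a limit on the fold change, a replicate block, other members or summaries of the ratio and share, and each library left out in turn.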

Additional observations from a re-analysis of the deposited data

How the results depend on the processing

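Of 72 keratin calls, 56 held in all alternatives that could be run (up to 16 a gene) and 16 were lost in at least 1. The losses from leaving out a library are given with each gene. With limma-voom, *Krt4* and *Krt20* in D3 organoids and *Krt12* in D7 organoids against *in vivo*, *Krt4* in D3 organoids against 2D, and *Krt20* from D3 to D7 were lost. Without normalization beyond library size, under which the median of all genes was -0.24 rather than -0.06 in 2D against *in vivo* and 0.31 rather than 0.10 in D7 organoids against 2D, *Krt10* and *Krt16* in D7 organoids against 2D were lost. A minimum of 1 for the log2 fold change in either direction removed *Krt18* in 2D against *in vivo*, and *Krt14* and *Krt18* from D3 to D7. No called value changed sign. Of 36 results not called, 7 were called in at least 1 alternative. With the filter at a mean of 10 CPM, which left 11 keratins to test, 11 rather than 17 were called in D7 organoids against 2D. Of all genes, 4980 of 9029 were called there, against 6605 of 14504 with the main filter.

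The log2 ratio of simple to basal keratins from mean log2 counts was 3.53 *in vivo*, 1.12 in 2D, 0.58 in D3 and 2.19 in D7 organoids, and with wider lists of members 1.92 in 2D and 1.47 in D7 organoids. The type II share without *Krt8* and *Krt18* was 58.4%, 53.6%, 53.4% and 30.7%. The summed CPM in 2D without normalization was 8566. With 1 library left out, the group values were those of the single library left.

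Values not called that changed sign were, for D3 organoids against *in vivo*, *Krt7* (0.04 without normalization, 0.066 without a filter) and *Krt5* (0.0063 without a filter), and, for D3 organoids against 2D without normalization, *Krt10* (0.15), *Krt16* (0.18) and *Krt75* (0.22, and 0.45 with limma-voom and 0.018 without a filter). With 1 library left out, the values that could change sign ran from -4.32 to 2.46 for *Krt36*, -0.10 to 0.80 for *Krt16* and -3.14 to 3.86 for *Krt4* in 2D against *in vivo*, from -0.037 to 0.35 for *Krt10*, -0.10 to 0.76 for *Krt16*, -0.29 to 0.26 for *Krt7* and -0.36 to 0.20 for *Krt5* in D3 organoids against *in vivo*, from -3.08 to 2.23 for *Krt20* and -0.44 to 0.55 for *Krt6a* in D7 organoids against *in vivo*, from -0.27 to 0.069 for *Krt10*, -0.52 to 0.44 for *Krt16* and -1.03 to 0.88 for *Krt75* in D3 organoids against 2D, and from -0.37 to 0.54 for *Krt13*, -0.20 to 0.43 for *Krt19* and -0.58 to 0.32 for *Krt80* from D3 to D7.

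With the replicate number as a block, 11 keratins rather than 10 were called in D7 organoids against *in vivo* and 9 rather than 8 from D3 to D7, *Krt7* being added in both (edgeR adjusted p = 0.044 and 0.0474), and the other counts were 12, 11, 14 and 17 as without it. The block raised the calls among all 14504 genes in every comparison. They went from 5042 to 5452 in D7 organoids against *in vivo* and from 3012 to 3587 between D3 and D7. No keratin call was lost and the count of keratin calls moved by less than 1.5 times. Deviations of libraries with the same number correlated at 0.0377 to 0.149 between groups, the labels name no shared litter or day, and the libraries were taken to share a number only. Depth limited the keratins under about 1 CPM, whose calls rested on few counts.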
